A study of Danio rerio with 6 samples.

Results

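The expression profile of the wild-type endocardium of the injured adult zebrafish heart was described from the 3 myd88+/+ samples of the series. The profile was taken over every gene whose mean over these 3 samples was above 5 normalized reads, which kept 16296 of the 17835 genes in the table. Each sample was a pool of krt4:EGFP+ cells sorted from 4 cryoinjured ventricles at 96 hours post cryoinjury (hpci), so that the profile rests on 12 ventricles. All fish carried the ET(krt4:EGFP)sqet33-1A enhancer trap, an insertion whose EGFP labels the endocardium of the heart. The fish of these pools carried 2 wild-type copies of myd88. The injury was made by freezing the ventricular apex, and live cells were gated as EGFP+ and DAPI- against ventricles without the transgene. The other 3 of the 6 samples came from myd88 mutants and were not compared here. No uninjured heart was among the samples used, so the values describe injured hearts without saying what the injury changed.

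The endocardium is the endothelial layer that lines the heart chambers. It shares with other endothelium the cadherin-5 junctions, the VEGF and Tie receptors and the flow-responsive KLF2 factors, and it is set apart by NFATc1 and by GATA factors that act early in heart development. After injury to the zebrafish heart the endocardium near the wound takes up a keratin program, produces matrix and cytokines, and serves as a scaffold for the regrowing muscle and the incoming vessels.

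The normalized counts summed to 11530505 to 11847536 per pool, and counting error limited the precision of low genes. Over the 16296 genes, Spearman's rho between pools was 0.983 for replicates 1 and 2, 0.975 for replicates 1 and 3, and 0.980 for replicates 2 and 3. These coefficients are across genes, which are not independent replicates. In all, 15.9% of the 16296 genes had a highest pool more than 2-fold above the lowest on the value + 1 scale, and the same held for 3.30% of the 7128 genes with a mean of at least 200. Below, a gene past that limit is said to differ between pools by over 2-fold. The labels do not say how the fish were assigned to pools, so the spread over the 3 pools holds biological and technical differences alike. Values are given for replicates 1, 2 and 3 in that order, as normalized read counts not divided by transcript length. A rank thus orders genes by counted reads, and a long transcript ranks higher than a short one at the same number of molecules. The authors had removed duplicate, multimapping, ribosomal and mitochondrial reads before counting, and how far this changed ranks and shares was not tested.

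The median gene of the profile had a mean of 149 normalized reads, and the quartiles lay at 37.0 and 481. The 5th and 95th percentiles lay at 7.92 and 2498. In the whole table, 2139 genes had a mean of at least 1000. The reads were spread over many genes: the 10 most abundant took 7.40% ± 0.0602 of the sum (SD, n = 3 pools), the 100 most abundant 26.4% ± 0.434, and 523 genes were needed to reach 50% of it and 5019 to reach 90%. Protein-coding genes made up 15670 of the 16296 genes and held 98.1% of all counted reads. LincRNAs, 264 of which passed, held 1.64%, and most of that was 1 gene, CR383676.2, at 1.37%. At the lower limit, 140 genes had the lowest mean that was kept, 5.33, and 109 had the highest that was left out, 5.

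**Figure D1:**
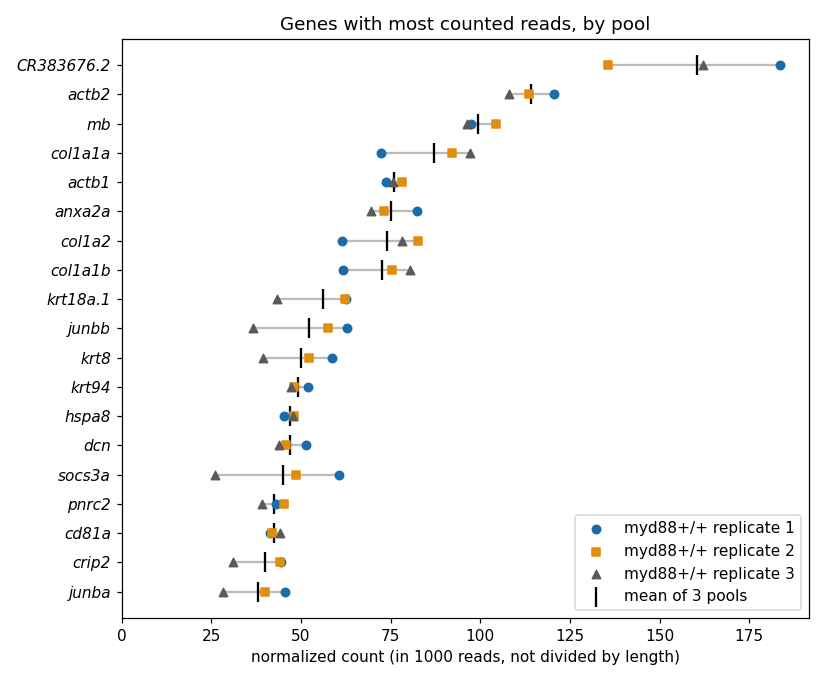
Normalized read counts (axis in units of 1000 reads) for 19 of the 20 genes with the highest mean, with a symbol for each of the 3 myd88+/+ pools, a tick for their mean and a grey line over their range. CR383676.2 and actb2 are clear of the gene ranked after them, socs3a reaches 60555 in replicate 1 and 25948 in replicate 3, and most other neighbours in rank overlap.

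Many of the 20 genes with most counted reads fell into a few groups: cytoskeleton, type I collagen, keratins, AP-1 factors, and secreted or feedback regulators. The highest gene, mb and several others lay outside these groups. The highest was CR383676.2 (chromosome 14, 45631236 to 45638712, minus strand in the annotation given for danRer11), annotated as a lincRNA, with 183639, 135749 and 161997 normalized reads. It ranked 1st in every pool. The cytoplasmic actins actb2 (120491, 113672 and 107912) and actb1 (73840, 78203 and 75544) ranked 2nd and 5th. Rank 3 was held by mb, which encodes the oxygen-binding protein myoglobin, with 97335, 104320 and 96346. Of the 19 pairs of neighbouring ranks in this group of 20, 17 overlapped in their pool ranges, so their order is not settled by these pools. The exceptions were the pairs CR383676.2 with actb2 and actb2 with mb. The top 20 lists of the 3 pools had 15 genes in common, and their top 100 lists had 81.

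Other members of the top 20 were known components of matrix, membrane and stress control. Type I collagen chains, the main fibre of scar and connective tissue, took ranks 4, 7 and 8: col1a1a had 72211, 92041 and 97240, col1a2 had 61322, 82527 and 78283, and col1a1b had 61809, 75393 and 80427. All 3 were lowest in replicate 1. The proteoglycan decorin (dcn), which binds collagen fibres, had 51293, 45907 and 43927. The membrane-binding annexin anxa2a had 82419, 73254 and 69421, the tetraspanin cd81a had 41327, 42042 and 44065, and the constitutive chaperone hspa8 had 45391, 47956 and 47854, each within a narrow range. The same group held pnrc2, a nuclear receptor coactivator and mRNA decay adaptor (43165, 45298 and 39144), and crip2, a LIM-domain protein of the vasculature and heart (44405, 44139 and 30969). The position of col1a1a, col1a2 and crip2 overlaps another annotated gene (AL929222.2, si:ch211-120e1.7 and AL929543.1), and reads that fell on both were not counted.

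All 32 endocardial and endothelial markers listed had a mean above 5, as did 91.4% of all genes in the table. Of the 32 markers, 30 had a mean of at least 200, beside 7128 of the 17835 genes in the table. Together the 32 markers took 1.88% ± 0.148 of the counted reads (SD, n = 3), with sums of 240806, 209699 and 209560. Of the 32, robo4, lmo2 and sox17 differed between pools by over 2-fold, beside 15.9% of all genes in the profile, and at a mean of at least 200 it was 2 of 30, beside 3.30%. The highest by counted reads was the water channel aqp8a.1 (43107, 35174 and 32292, rank 22). The proteoglycan spock3 had 41469, 31529 and 28056, and ramp2, a coreceptor for adrenomedullin, had 29959, 20600 and 19656. These genes were highest in replicate 1.

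Genes that define endothelium as such were read in every pool. The junction protein VE-cadherin (cdh5) had 4525, 7333 and 8973, and it was lowest in replicate 1, where the leading markers above were highest. The VEGF receptor kdrl was steady at 4329, 3845 and 4037, and the orphan receptor tie1, which works with Tek in vessel stability, had 5093, 6026 and 6384. The endothelial integrin-binding factor egfl7 had 7753, 6367 and 7069, and von Willebrand factor (vwf), which tethers thrombocytes, had 7319, 7270 and 5625. Pecam1 had 1009, 848 and 843. The factors linked to the endocardial lineage were gata5 (9575, 11546 and 13363) and nfatc1 (2971, 2566 and 2850), and nfatc1 stayed within a narrow range. At the low end, plvapb, a component of fenestral diaphragms, had 107, 97 and 72 and the factor sox17 had 21, 6 and 22.

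Markers of coronary, arterial, lymphatic and venous endothelium were measured as well. Of 9 coronary and arterial genes, 8 passed a mean of 5, led by flt1, a VEGF receptor that can act as a decoy (3986, 3730 and 3144), and the Notch ligand dll4 (1726, 1802 and 1269), both of which endocardium can share. The water channel aqp1a.1 had 1111, 538 and 722, the arterial ephrin efnb2a 602, 599 and 800, and the Notch target hey2 560, 625 and 426. The chemokine receptor cxcr4a, a marker of coronary vessels in fish, had 7, 3 and 4 and was below the limit, and the arterial connexin gja5b had 43, 31 and 34. Of 8 lymphatic and venous genes 7 were matched, with the scavenger receptor stab1 at 2078, 1935 and 1742, the venous factor nr2f2 at 1024, 872 and 1085, the venous ephrin receptor ephb4a at 646, 627 and 735, the lymphatic regulator prox1a at 115, 97 and 195, and the lymphatic receptor flt4 at 63, 90 and 82.

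**Figure D2:**
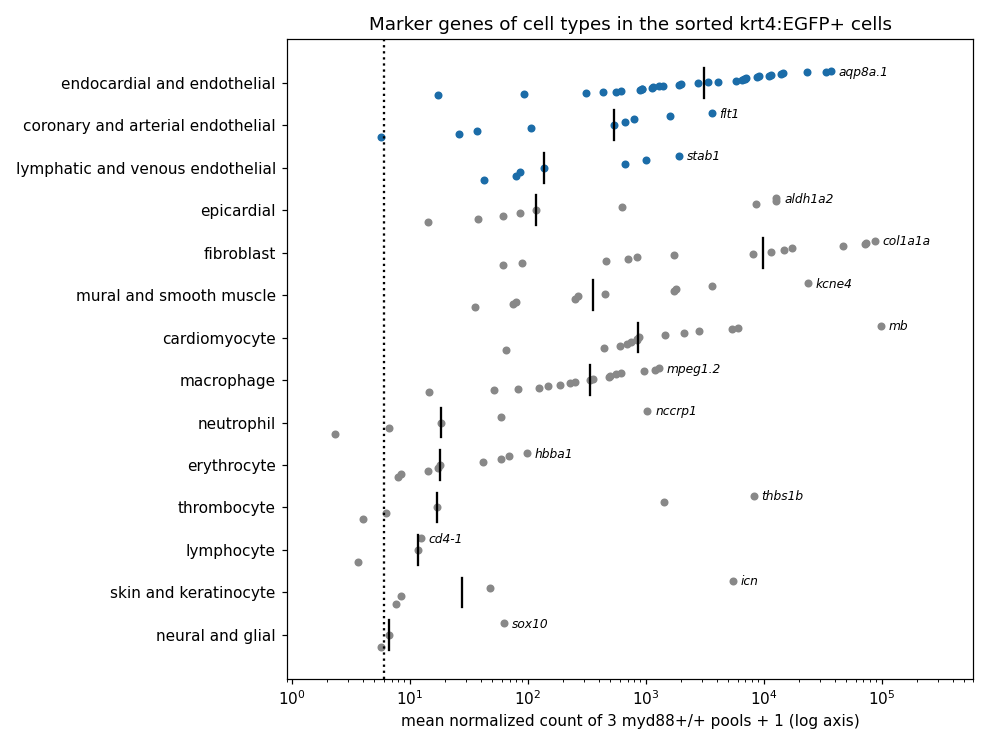
Mean normalized read count + 1 of the 3 myd88+/+ pools on a log axis, with a dot for each marker matched in the table, a black line at the median of a list and a dotted line at the mean of 5 that a gene had to pass. The endothelial lists are in blue. The gene with the highest mean of each list is named, and in the cardiomyocyte, mural, neutrophil, thrombocyte and skin lists that gene lies far from the other members.

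The sorted pools also held reads of genes that mark other cells of the ventricle, and their part in the profile was not tested. In bulk samples a few cells of another type with much RNA and many cells with little cannot be told apart. Of the 16 cardiomyocyte markers 14 were matched and all passed, at 1.04% ± 0.0734 of the reads, but mb made up most of that. Without mb the other 13 summed to 18074, 28930 and 22064. The contractile genes actc1a (4301, 7520 and 6469) and myl7 (4431, 6690 and 5079) and the natriuretic peptide nppb (2593, 4882 and 1002) led them. In replicate 1, 12 of the 14 were at their lowest, where 33.5% of all genes in the profile were lowest.

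Fibroblast markers were read throughout, at 2.87% ± 0.358 for 14 of 14 genes. The type I collagen chains and dcn lead this list, and endocardial cells near a wound can make collagen too. Without the collagens and dcn, the other 8 genes summed to 31796, 34588 and 43449. The receptor pdgfra, which defines fibroblasts, had 788, 670 and 1058. The matricellular periostins postna (10131, 12099 and 12390) and postnb (4594, 6522 and 13151) were read in every pool, and postnb differed between pools by over 2-fold. Tenascin C (tnc) had 29, 27 and 211 and the fibulin fbln1 had 125, 26 and 31, so the list did not move as a block. Of its 14 genes 6 passed 2-fold, beside 15.9% of all genes, 4 of the 12 with a mean of at least 200 did so, beside 3.30%, and 9 were highest in replicate 3, where 36.1% of all genes were highest.

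Mural markers came to 0.272% ± 0.0492 for 10 of 10 genes, and the potassium channel subunit kcne4 (19104, 26271 and 25240) held most of it. Without kcne4 the sums were 6592, 7334 and 11048. Smooth muscle actin (acta2) had 2511, 3266 and 5081, whereas the pericyte receptor pdgfrb had 319, 250 and 223. Among 9 epicardial markers, the retinoic acid enzyme aldh1a2 (15687, 13256 and 9445), the transglutaminase tgm2b (13073, 10705 and 14219) and fibronectin fn1b (8208, 8136 and 9290) held the highest ranks, and none of them is made by the epicardium alone. The 4 epicardial transcription factors tcf21, tbx18, wt1a and wt1b together had only 273, 212 and 196, with tcf21 at 76, 59 and 45 and wt1a at 23, 13 and 4.

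Blood cells left a smaller trace that differed between pools. Macrophage markers summed to 7352, 9478 and 5303 (17 of 18 matched, all passing, 0.0628% ± 0.0170). Of the 17, 10 differed by over 2-fold, beside 15.9% of all genes, 15 were highest in replicate 2, beside 29.5% of all genes, and 16 were lowest in replicate 3, beside 35.9%. The perforin-like mpeg1.2 had 1247, 1434 and 1171, the scavenger receptor marco 475, 1008 and 376, and the complement component c1qa 199, 347 and 135. The growth factor receptor csf1ra had 4, 19 and 18. Erythrocyte genes ran the same way at much lower counts: all 9 identifiers were lowest in replicate 3 and 8 were highest in replicate 2, beside the same shares of all genes, and they summed to 360, 568 and 47. The globin hbba1, which the table lists under 2 identifiers, had 116, 169 and 7 for the higher of them. Globin copies are near identical, and how the counting divided their reads is uncertain.

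Of 12 neutrophil genes 5 were matched. The highest was nccrp1 with 1209, 1095 and 791, and the other 4 summed to 67, 128 and 53, with il1b at 21, 18 and 13 and lect2l at 0, 3 and 1. Thrombocyte integrin itga2b had 13, 14 and 21 and the platelet glycoprotein gp9 had 3, 6 and 0, while the adhesive glycoprotein thbs1b, which many cells secrete, had 6591, 7379 and 10784. The lymphocyte genes cd4-1 (6, 21 and 7) and cd79a (7, 0 and 1) were near the limit. Among skin genes, icn, an S100-type calcium-binding protein of fish epidermis, had 7213, 5530 and 3818, whereas krt5 had 8, 11 and 3 and cldni 16, 3 and 1. The glial and neural crest factor sox10 had 94, 38 and 55, and the myelin gene mbpa had 6, 6 and 2.

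The genes known from the wound-edge endocardium were read in all pools. All 16 listed passed, with sums of 183769, 164156 and 134065. Most of these sums came from the keratins krt18a.1 (62470, 62355 and 43456) and krt8 (58644, 52112 and 39361). By members, 10 of the 16 were lowest in replicate 3, beside 35.9% of all genes, and 4 were highest there, beside 36.1%. All 16 had means of at least 200, as did 7128 of the 17835 genes in the table. Several of the 16 were chosen from what was known of these libraries, so their level is a description. Krt4, the gene after which the EGFP trap is named, had 23289, 13761 and 16451 (17834 ± 4912, SD, n = 3), rank 69, and was highest in replicate 1. The chemokine cxcl18b had 2116, 1636 and 828 and was more than 2-fold lower in replicate 3 than in replicate 1. The homeobox gene irx5a had 589, 559 and 467, and myd88, the adaptor of Toll-like and interleukin-1 receptors, had 1305, 1149 and 1070 (1175 ± 120), rank 1857. Both were within a narrow range over the pools. The position of irx5a overlaps the annotated gene BX255967.1.

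Signals that the endocardium can send to its neighbours were part of the same group. The cytokine il11a, which acts through gp130, had 852, 1007 and 721. The lymphatic growth factor vegfc had 232, 355 and 170 and differed by over 2-fold. The hyaluronan synthase has2 had 795, 687 and 768, and the hyaluronan linkers hapln1a (1353, 1511 and 829) and hapln1b (1637, 1742 and 2065) were read in every pool, hapln1a lowest and hapln1b highest in replicate 3. Fibronectin fn1a had 4317, 3723 and 6974, highest in replicate 3.

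Keratins, the intermediate filament proteins of epithelia, took 1.74% ± 0.244 of the reads from 13 listed genes, of which 9 passed. The simple-epithelial pair krt8 (58644, 52112 and 39361) and krt18a.1 (62470, 62355 and 43456), and the type I keratin krt94 (51891, 48069 and 47209), held most of them. Krt15 had 18586, 13345 and 13735, krt18b had 11941, 10893 and 10220, and krt91 had 7767, 3085 and 3468. Of the 9 passing keratins, 8 were highest in replicate 1, beside 31.9% of all genes in the profile, and 6 were lowest in replicate 3, beside 35.9%. The list sums were 234704, 203715 and 173975. Keratins at or near the limit were krt5 as given above, krt222 at 7, 2 and 2, krt97 at 0, 1 and 0 and krt1-19d at 0 in all pools.

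Matrix genes made up a large share of the profile. Collagens took 2.44% ± 0.368 from 40 identifiers, 35 of which passed, and their sums of 239550, 300067 and 317684 were lowest in replicate 1. By members, 13 of the 35 were lowest there, beside 33.5% of all genes. Of the 35, 10 differed by over 2-fold, beside 15.9% of all genes. Of the 15 with a mean of at least 200 it was 2, beside 3.30%. Behind the type I chains stood the fibril regulators col5a2a (18350, 23038 and 23196) and col5a1 (13841, 14882 and 22858). The microfibrillar collagen col6a1 had 2228, 2333 and 3323 and the basement membrane chain col4a1 had 2077, 2201 and 2436. Laminins, the other scaffold of basement membranes, were led by lama4 (2333, 2482 and 2651), lamb1b (1908, 1605 and 1754) and lamb1a (1471, 1770 and 1725). The chain lamc1, common to most laminins, had 1504, 1420 and 1661. Of the 9 passing laminins 1 differed by over 2-fold, beside 15.9% of all genes. Of the 7 with a mean of at least 200 it was 0, beside 3.30% of all such genes.

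Receptors and junctions that hold endocardial cells to this matrix and to each other were measured too. Of 31 integrins 28 passed, and the fibronectin-binding subunit itga5 (5218, 6546 and 4529) with its partner itgb1b (3260, 3417 and 4311) led them. The leukocyte subunit itgb2 had 781, 887 and 642. N-cadherin (cdh2) had 4340, 4502 and 5515 beside cdh5, and the mesenchymal cadherin cdh11 had 1019, 1576 and 2042. Of the 7 passing cadherins, 6 were lowest in replicate 1, beside 33.5% of all genes. The endothelial claudin cldn5b had 762, 392 and 530 and cldn12 had 1623, 1532 and 1481. Cathepsins, the proteases of lysosomes, were led by ctsla (40743, 34235 and 32175, rank 25), followed by the collagen-degrading ctsk (5505, 5619 and 6431) and ctsd (6063, 5820 and 4626). None of the 12 differed by over 2-fold, beside 15.9% of all genes and 3.30% of those with a mean of at least 200. Annexins beside anxa2a were anxa13 (13238, 12366 and 11708) and anxa1a (12183, 8108 and 6981).

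**Figure D3:**
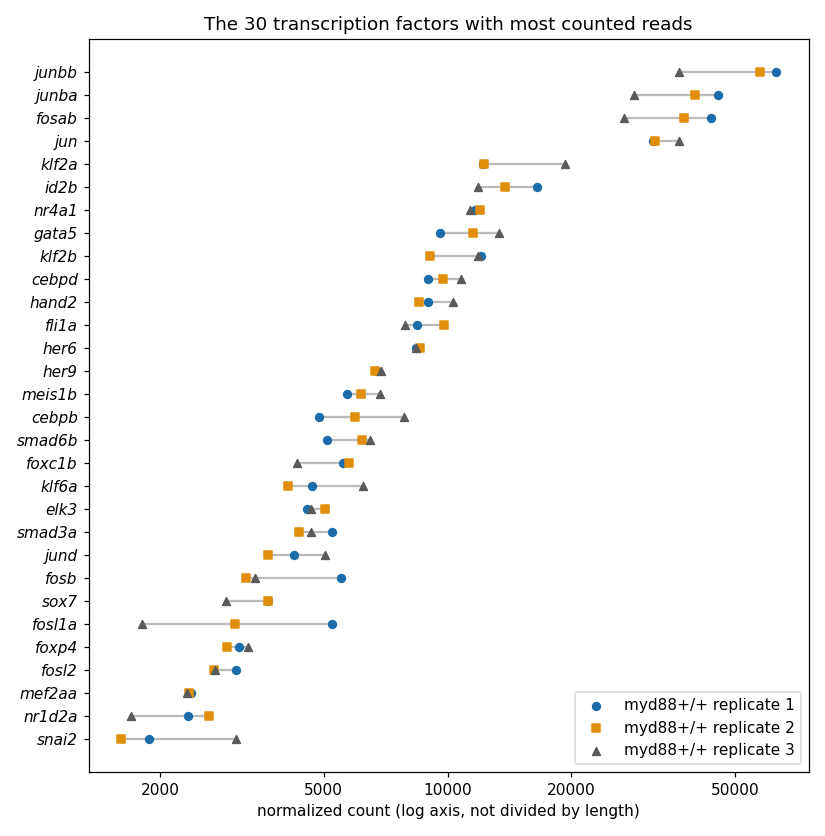
Normalized read counts on a log axis for the 30 transcription factor genes with the highest mean among the families listed, with a symbol for each of the 3 myd88+/+ pools and a grey line over their range. The AP-1 genes junbb, junba, fosab and jun stand to the right, and her6, her9, nr4a1 and mef2aa have the pools nearly on top of each other.

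Transcription factors were grouped into 23 families with 256 identifiers. Of these 225 passed, beside 91.4% of all genes in the table. A mean of at least 1000 was reached by 57 of the 256, beside 2139 of the 17835 genes in the table. The AP-1 genes, which respond within minutes to growth factors and stress, held the 4 highest means. Junbb had 62875, 57600 and 36650, junba 45433, 40034 and 28395, and fosab 43693, 37554 and 26880, and each was lowest in replicate 3. Jun went the other way, with 31523, 31893 and 36619. The flow-responsive klf2a had 12192, 12264 and 19271 and klf2b 12073, 9080 and 11882. The orphan receptor nr4a1, itself an immediate early gene, was steady at 11666, 12013 and 11329.

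Lineage factors of heart and endothelium were read over a wide range of counts. Among GATA genes gata5 was followed by gata6 (1111, 1284 and 1616), gata2a (810, 844 and 714), gata3 (415, 293 and 311) and gata4 (197, 196 and 220), while the erythroid factor gata1a had 0, 3 and 5. The heart field factor hand2 had 8946, 8508 and 10300. In the ETS family, which binds most endothelial enhancers, fli1a had 8433, 9792 and 7858, elk3 had 4561, 5038 and 4652, and erg had 857, 1043 and 889. SOXF factors were present as sox7 (3646, 3652 and 2888) and sox18 (781, 1019 and 976), with sox17 near the limit. The forkhead gene foxc1b had 5581, 5755 and 4297, the TALE homeobox gene meis1b 5696, 6148 and 6840, and mef2aa 2381, 2353 and 2322. Tbx20, a cardiac T-box gene also used in endocardium, had 672, 511 and 556.

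Factors tied to mesenchymal change and to acute response were also read. The repressor snai2 had 1876, 1608 and 3051, twist1b 1332, 989 and 1814, and snai1b 228, 308 and 724, all highest in replicate 3. Of the 9 passing snail, twist and zeb genes, 6 were highest in replicate 3, beside 36.1% of all genes. Zeb2a (1078, 1191 and 1127) and zeb1b (388, 474 and 454) were highest in replicate 2. CCAAT-binding factors cebpd (8977, 9723 and 10791) and cebpb (4854, 5949 and 7826) were highest in replicate 3, whereas cebpa (766, 750 and 457) was lowest there. The BMP-induced inhibitor id2b had 16464, 13830 and 11828, highest in replicate 1. Families at the low end were the Hox genes, of which 2 of 5 passed and the highest, hoxb3a, had 31, 24 and 21, the Runx genes, with runx1 at 110, 118 and 95, and nkx2.5, the muscle lineage factor, at 34, 69 and 43. Irx5a was the only Iroquois gene of 5 with a mean of at least 200, and irx6a had 131, 90 and 136.

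The summed counts of the VEGF and angiopoietin, Notch, and BMP and TGF-beta lists differed little between pools, while single members did differ. The 18 matched VEGF and angiopoietin genes summed to 20695, 21083 and 21097, led by the receptors tie1, kdrl and flt1, with the ligands vegfaa at 403, 626 and 471 and vegfab at 254, 360 and 401. The neuropilin nrp1a had 1318, 1238 and 1740. Of the Tek ligands, angpt1 had 693, 316 and 431 and angpt2b had 8, 9 and 6. In this list 3 of 18 genes differed by over 2-fold, beside 15.9% of all genes, and 2 of the 11 with a mean of at least 200, angpt1 and vegfc, beside 3.30%. The 19 Notch genes summed to 23925, 23556 and 23190. Most of these Notch list sums came from the hairy-family genes her6 (8382, 8550 and 8366) and her9 (6717, 6676 and 6886). Behind them stood the receptor notch1b (2438, 1902 and 1855) and the ligand dll4, with jag2b at 528, 531 and 620 and jag1b at 493, 346 and 387.

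The BMP and TGF-beta list, 36 of 37 genes matched and all passing, summed to 69686, 67484 and 67305. Its ligands were led by tgfb3 (9468, 9530 and 10009), bmp16 (6529, 8011 and 6939) and bmp6 (1763, 2124 and 2568), whereas the trabecular ligand bmp10 had 575, 522 and 399 and bmp4 had 35, 28 and 19. The type II receptor tgfbr2b had 3987, 4285 and 4127. Feedback and effector genes were smad6b (5077, 6179 and 6480) and smad3a (5247, 4347 and 4650). Of the 28 genes with a mean of at least 200 in this list, 1 differed by over 2-fold, beside 3.30% of all such genes. It was the coreceptor tgfbr3 (744, 347 and 740), through replicate 2. Among Wnt ligands wnt11 was highest (1940, 3156 and 1982), with wnt4 at 650, 631 and 417, and the receptor fzd6 had 1090, 1116 and 1049. Fibroblast growth factors were low, fgf18a leading with 110, 113 and 86.

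The Toll-like receptor pathway was read mainly through its regulators. Of 30 genes listed 23 were matched and 18 passed. The NF-kB inhibitor nfkbiab had 3923, 5968 and 5296 and nfkbiaa 732, 721 and 735. Among the receptors, the flagellin receptor tlr5b led with 1141, 1004 and 832, a position that overlaps thbd, followed by the double-stranded RNA receptor tlr3 (217, 319 and 187) and tlr5a (26, 41 and 33). Receptors below the limit were tlr2 (5, 7 and 0), tlr21 (6, 0 and 4), tlr19 (1, 2 and 5) and tlr22 (1, 5 and 2). The kinases irak4 (126, 162 and 177) and irak1 (137, 149 and 196) and the ligase traf6 (467, 399 and 406) act after myd88. NF-kB subunits had 199, 143 and 218 for rela and 584, 579 and 521 for relb, and nfkb1 had 4, 5 and 6, so that its mean of 5 fell just short of the limit.

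Among the gene families described, chemokine ligands had the largest share of members past 2-fold. Of 25 listed 16 passed, and 14 of those differed between pools by over 2-fold, against 15.9% of all genes. The median of the 16 was only 78.3 normalized reads, and low genes spread more by counting alone. The 3 with a mean of at least 200 all differed by over 2-fold, beside 3.30% of all such genes. Beside cxcl18b the family held cxcl14 (620, 226 and 309), cxcl12a (485, 292 and 125) and cxcl12b (277, 79 and 30). An exception was the neutrophil attractant cxcl8a with 114, 114 and 119. Of the 16, 12 were highest in replicate 1, beside 31.9% of all genes, and 11 lowest in replicate 3, beside 35.9%, and the sums were 4359, 2953 and 1672. Among receptors the scavenger ackr4b had 7677, 7055 and 7523, the Cxcl12 scavenger ackr3b 1362, 948 and 1225, and cxcr4b 451, 815 and 313. Receptors for type 2 cytokines, il4r.1 (2502, 1893 and 1106) and il13ra1 (1952, 1470 and 980), led the interleukin receptors. Both were highest in replicate 1 and lowest in replicate 3, where 35.9% of all genes were lowest. The TNF receptors tnfrsfa (3444, 3817 and 4345) and tnfrsf9a (4168, 2703 and 4208) were highest in replicate 3.

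The interferon list was modest, with sums of 4860, 4641 and 3815 over 12 matched genes. Its highest gene was the transducer stat1a (1790, 1546 and 1540), and the effectors isg15 (552, 759 and 508), mxa (349, 324 and 394) and rsad2 (17, 59 and 21) were read as well. The hypoxia list (10 of 12 matched) was led by ldha (8932, 10944 and 7860), the last step of glycolysis to lactate, and egln3, an oxygen-sensing hydroxylase (4187, 7541 and 5924). The glucose transporter slc2a1a had 29, 15 and 29. The unfolded protein response, 14 of 14 genes, showed no gene past 2-fold, beside 15.9% of all genes and 3.30% of those with a mean of at least 200. Its genes included hspa5 (BiP) at 13202, 14458 and 15857, the factor atf4b at 14410, 12253 and 7991, and the chaperone hsp90b1 at 8258, 8909 and 8706.

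**Figure D4:**
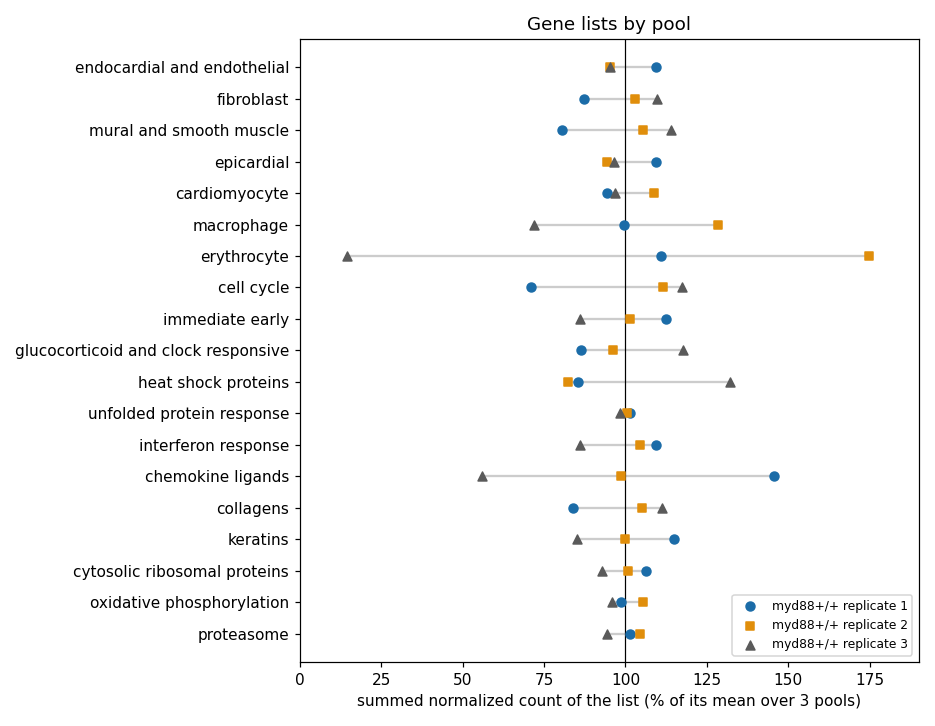
Summed normalized count of 19 gene lists in each of the 3 myd88+/+ pools, as a percentage of the list's mean over the pools, with a grey line over the range. The erythrocyte list runs over the widest range, the heat shock sum is high in replicate 3, the cell cycle list is low in replicate 1, and the unfolded protein response and proteasome lists lie close to 100%.

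Cell cycle genes were mostly low in the same pool. Of the 23 cell cycle identifiers 22 were lowest in replicate 1, beside 33.5% of all genes, and 17 were highest in replicate 3, beside 36.1%. They summed to 9116, 14300 and 15032. The sliding clamp pcna had 2232, 3587 and 3303, the helicase subunit mcm6 666, 1073 and 1057, the mitotic kinase cdk1 539, 833 and 858, and the proliferation marker mki67 355, 415 and 608. The exception was rrm2, a subunit of ribonucleotide reductase that the table lists under 2 identifiers, with 112, 442 and 806 for the chromosome 19 identifier and 616, 593 and 225 for the other. The identifiers ran in opposite directions. Reads that mapped to more than 1 place had been removed before counting, and how well the remaining reads tell the identifiers apart was not tested. Cdh5 and the summed collagens, carried by the type I chains, were also lowest in replicate 1 and the endocardial list sum was highest there, and the link between these was not tested.

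Immediate early genes took 2.51% ± 0.308 of the reads, and all 25 passed. Their sums were 331533, 298791 and 253792, and 15 were lowest in replicate 3, beside 35.9% of all genes. Egr1, a zinc finger factor induced by serum, had 20375, 15753 and 11896 and the antiproliferative btg2 had 30601, 28209 and 19456. Fosl1a had 5227, 3035 and 1801, and egr2a had 478, 375 and 101. Genes with the other order were the phosphatase dusp1 (10365, 11018 and 22520) and ier5 (6720, 6980 and 9341), which were highest in replicate 3 with jun. The dissociation and sort, during which such genes can respond, was common to all pools and its part was not tested.

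Heat shock proteins came to 2.24% ± 0.657. Of 79 identifiers 76 passed and 10 differed by over 2-fold, beside 15.9% of all genes. Of the 50 with a mean of at least 200 it was 6, beside 3.30%. The list summed to 223363, 215212 and 345187, highest in replicate 3. By members it was not high there, as 20 of the 76 were highest in replicate 3, beside 36.1% of all genes. The higher sum of replicate 3 lay mostly in its inducible Hsp70 genes: hsp70l had 18835, 9676 and 67423 (31978 ± 31036), hsp70.2 25435, 22364 and 45712, hsp70.3 23106, 21780 and 41284, and hsp70.1 14731, 13841 and 33482. The hsp70.1 to hsp70.3 genes are close copies, and the counting cannot be relied on to tell them apart. Together these 4 genes summed to 82107, 67661 and 187901, and the other 75 to 141256, 147551 and 157286. The inducible Hsp90 gene hsp90aa1.2 followed with 7177, 5536 and 12693. Constitutive hsp90ab1 had 18175, 20301 and 18478, with no excess in replicate 3.

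Glucocorticoid and clock genes were read in all pools. The steroid receptor cochaperone fkbp5 had 21549, 26194 and 27804 (rank 42) and the kinase sgk1 7370, 8692 and 13648. The mTORC1 inhibitor ddit4 had 3750, 1688 and 8565 and was the only one of 19 to differ by over 2-fold, beside 15.9% of all genes. Of the 18 with a mean of at least 200 it was also 1, beside 3.30%. The clock repressors per2 (1399, 1457 and 1405) and nr1d2b (2180, 1977 and 2049) were nearly level between pools. Of the 19, 12 were lowest in replicate 1, beside 33.5% of all genes.

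Genes of basic cell function had narrow ranges, but many members were low in the same pool. None of the 82 cytosolic ribosomal protein identifiers differed by over 2-fold, beside 15.9% of all genes and 3.30% of those with a mean of at least 200. They took 1.49% ± 0.0874 of the reads, with rpl3 (17871, 18702 and 18659), rps2 (15529, 16354 and 15257) and rplp0 (12421, 11980 and 12235) at the top. Even so 73 of the 82 were highest in replicate 1, beside 31.9% of all genes, and 73 were lowest in replicate 3, beside 35.9%, and the sums were 186380, 176586 and 162511. Oxidative phosphorylation genes (87 identifiers, 0.641% ± 0.0239) were led by the ATP synthase subunits atp5f1b (8260, 9411 and 8740) and atp5fa1 (5049, 5968 and 5766), and 3 differed by over 2-fold, beside 15.9% of all genes. Of these 87, 67 were lowest in replicate 3 and 44 were highest in replicate 2, beside 35.9% and 29.5% of all genes. Proteasome genes (43 identifiers, 0.587% ± 0.0224) were led by psmc4 (3410, 3584 and 3112), and 35 of 43 were lowest in replicate 3, beside the same 35.9%. The mitochondrial ADP/ATP carrier slc25a5 had 29190, 30769 and 28849 and was the highest of 223 passing solute carriers.

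**Figure D5:**
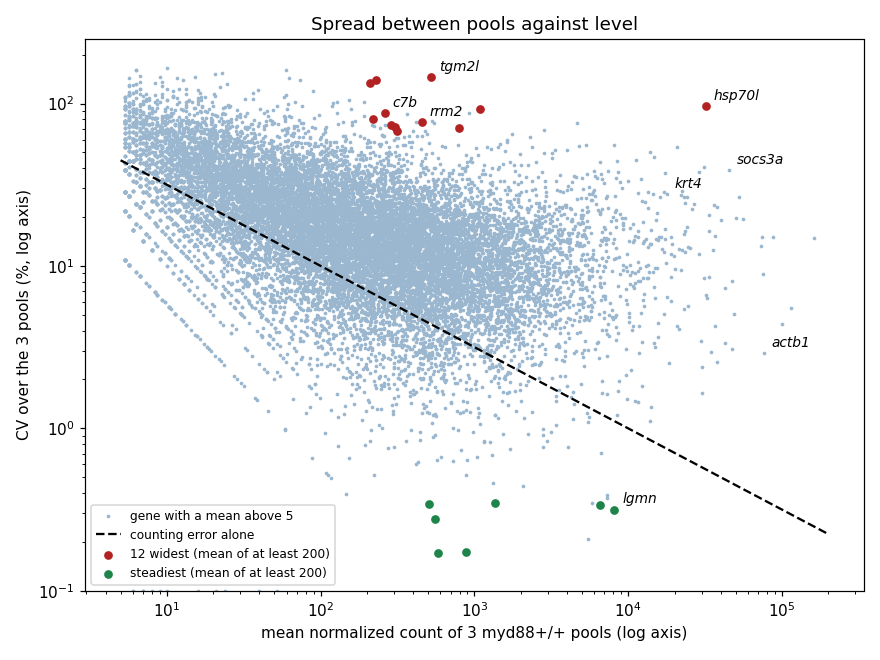
Coefficient of variation over the 3 myd88+/+ pools in percent against mean normalized read count, both on log axes, with dots for genes with a mean above 5 and a dashed line for the error that counting alone would give. CVs under 0.1% are drawn at 0.1%. The spread falls with level up to a mean of about 1000 and lies mostly above the dashed line, with tgm2l, c7b, rrm2 and hsp70l far above it and lgmn far below.

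The spread between pools fell with level up to a mean of about 1000. The median coefficient of variation was 44.4% for the 1302 genes with a mean above 5 and up to 10, where counting error alone would give 37.8%. It was 17.0% against 9.73% for the 4356 genes above 50 and up to 200. For the 1763 genes above 1000 and up to 5000 it was 9.51% against 2.43%, and for the 374 above 5000 it was 10.2% against 1.09%. Over 2-fold differences were found in 53.9%, 10.6%, 2.38% and 5.08% of these classes. A CV beyond counting error was computed per class, as the square root of the class mean of variance minus mean over squared mean. It was 41.0% in the lowest of these classes and 22.1%, 14.5% and 17.6% in the others. The widest genes weigh most in such a mean of squares, so it is not what remains of the median CVs above. In all, 13106 of the 16296 genes (80.4%) had an SD above the square root of the mean.

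Among the 7128 genes with a mean of at least 200, the 235 past 2-fold were highest in replicate 1 in 108 cases, in replicate 2 in 41 and in replicate 3 in 86. They were lowest in replicate 3 in 109. The widest gene was CR855311.1 with 601, 69 and 21, followed by the transglutaminase tgm2l with 1407, 72 and 96, a position that overlaps aars1. Both owed their range to replicate 1, as did BX908782.2 (531, 55 and 39) and the complement component c7b (514, 69 and 202). Another group was low in replicate 3 alone or lowest there: CR933734.2 (431, 426 and 51), BX248082.2 (1134, 1109 and 144), msrb1a, a methionine sulfoxide reductase (433, 443 and 67), and hcar1-4, a hydroxycarboxylic acid receptor (511, 267 and 86). CU929150.1 (258, 2194 and 798) and myocilin, myoc (171, 411 and 71), were highest in replicate 2, and the chromosome 19 rrm2 identifier and hsp70l in replicate 3. These were picked as the widest of 7128, so their ranges are a description of these pools.

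At the other end stood genes whose pools nearly coincided. The lysosomal protease lgmn had 8113, 8164 and 8145, a CV of 0.317% where counting error alone at that level is 1.11%. The ribonucleoprotein gene hnrnpabb had 6605, 6567 and 6566. The valine catabolism enzyme hibch (583, 581 and 582), the matrix protease inhibitor reck (877, 878 and 880), the fatty acid elongation enzyme tecrb (557, 555 and 554), the transcription elongation factor leo1 (508, 505 and 508) and the spectrin chain sptan1 (1362, 1364 and 1371) were as steady. All lie below the counting line, as the lowest of so many genes would, so the steadiness is again a description of these 3 values.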

How the data were processed

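RNA from sorted krt4:EGFP+ cells was poly(A)-selected and sequenced by the submitters. The authors' processing notes name Trimmomatic 0.39, STAR 2.7.10a, Picard 3.0.0, featureCounts 2.0.4 and DESeq2 1.36.0 with danRer11. The deposited table holds, as a score per gene and sample, DESeq2-normalized counts that the authors rounded to whole numbers. Values held by no gene among the low numbers (20 and 61 in replicate 1, 85 in replicate 2, 56 in replicate 3) put a step of 1 near 1 read. Reads that overlapped several genes were left out, and whether strand was used is not given in the sources used here. Mean, SD, CV and the ratio of the highest to the lowest pool (value + 1, over 2-fold) were computed with pandas 2.3.3 for genes with a mean above 5. The CV beyond counting error was tried on simulated counts with the same CV in every gene, for means above 50 and up to 5000. It was not checked outside that range or for genes of unequal CV. No test between groups was run.

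Genes named were the 20 highest means, the 12 widest and the steadiest with a mean of at least 200 and a symbol without a colon, the leading and defining members of each list, and krt4, myd88, cxcl18b and irx5a, apart from 2 genes that are not reported here. The members and lists were chosen with earlier results of these data known. Names that share letters with a family without belonging to it were removed after the table was seen. Genes of a list with no row in the table were not analysed here. Levels per transcript length were planned but not computed. Alternatives were another minimum, equal totals, another pseudocount and leaving out each pool.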

Additional observations from a re-analysis of the deposited data

How the results depend on the processing

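No paired analysis was possible because the samples are 3 pools of 1 genotype and no groups were compared. The number of genes in the profile stayed between 14994 and 16346 in the alternatives tried: a minimum mean of 10, pools scaled to equal totals, and each pool left out. The count of genes past 2-fold between pools (2583) was the least settled value. It was 698 with a minimum mean of 50, and 1118 to 1561 with 1 pool left out, since a range over fewer pools is narrower by construction. It was 1762 with a pseudocount of 5, 3619 with no minimum and 2750 with equal totals. The mean Spearman's rho between pools (0.980) was 0.970 with a minimum mean of 50. The median level of 149 lay between 147 and 152 with 1 pool left out, more than the SD of 1.15 between the pool medians. The share of the 10 most abundant genes was 7.41% to 7.43% with 1 pool left out. Of 19 genes followed through 4 alternatives each, 3 means moved by over 1.5 times: without replicate 3, hsp70l fell to 0.446 and ddit4 to 0.583 of the reported mean, and without replicate 1, tgm2l fell to 0.160 of it. The alternatives per kilobase of transcript were not run, because no transcript lengths were used here. Depth limits values under about 50, where counting error is a large part of the spread. For genes with a mean above 10 and up to 50 the median CV was 29.0%, against 20.4% from counting alone.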

Other observations

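Gene groups outside the lists above were picked after the values were seen, and they are given as descriptions. Haemostasis genes took 1.73% ± 0.0732 of the counted reads (SD, n = 3 pools), and all 16 followed passed. Beside anxa2a these were tfpia, an inhibitor of tissue factor (27516, 34164 and 38326, rank 29), coagulation factor f8 (34185, 30057 and 31418, rank 32), factor f10 (10675, 10205 and 10379) and protein S, pros1 (4116, 5269 and 3376). Tissue factor was read as f3b (2884, 1909 and 1720) and f3a (169, 138 and 204). The plasminogen activators were read too, with plat at 117, 371 and 307 and plaua at 22, 33 and 3. Thbd (thrombomodulin), which binds thrombin on endothelium, had 161, 122 and 150, and its position overlaps tlr5b.

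Genes linked to gp130 cytokines were uneven between pools at their feedback inhibitors. Socs3a (60555, 48676 and 25948) and socs3b (10256, 10717 and 4838), which shut off JAK signalling, were each over 2-fold lower in replicate 3 than in their highest pool. The receptor subunit il6st had 1672, 1154 and 1146 and the factor stat3 had 1010, 912 and 910. The kinase pim1 had 27505, 32938 and 26595. Of the 11 genes of this group, 8 were lowest in replicate 3, where 35.9% of all genes of the profile were lowest.

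Vasoactive genes included edn2 (3393, 5792 and 4787) and edn1 (1225, 1547 and 2224) with their converting enzyme ece1 (4263, 5115 and 4422), and ptgs2a, the inducible prostaglandin synthase (5149, 9796 and 4586). Cav1, the caveolar coat protein, had 21725, 22070 and 20401. Matrix remodelling genes were read beside the collagens: mmp2 (6555, 7199 and 7447), loxl2a (6125, 7141 and 6465), loxl2b (5046, 7009 and 7694) and the collagen chaperone serpinh1b (6768, 6527 and 11615), while mmp9 had 42, 101 and 32. By chromosome, the 965 genes of chromosome 4 had a median mean of 33.7 normalized reads and those of chromosome 22 a median of 92.3, against 126 to 203 for the other 23 chromosomes.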
